A study of Arabidopsis thaliana with 8 samples.

Results

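The transcripts of 3 nuclear genes of stromal carbon metabolism were examined in Arabidopsis plants that do or do not make the delta subunit of the chloroplast ATP synthase. The genes are PRK (locus AT1G32060), which encodes phosphoribulokinase, AT5G58330, which encodes the chloroplast NADP-malate dehydrogenase, and AT5G17630, which encodes the plastid xylulose 5-phosphate translocator (XPT). They were chosen by name, as the probes whose platform annotation gives exactly 1 gene and that gene is among the 3. Earlier results of these data were known when the choice was made, so the p-values and ranks below describe the 3 genes and are no independent test. Each was found on 1 probe, so 3 of the 692 single-gene probes, of 3439 probes in all, are described. A further 870 probes name several genes and were not used for naming.

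The study measured total RNA on 8 arrays, from Arabidopsis thaliana plants of the ecotype Wassilevskija kept on MS medium (the Murashige and Skoog salts). The wild type (WT) has 4 arrays and the mutant atpd, without the delta subunit, has 4. Both genotypes share ecotype and medium, and the labels give no age, tissue, light condition or allele. Nothing in them tells if the arrays of 1 genotype hold RNA of different plants. The errors and p-values below therefore cover the differences among arrays only, and these can be technical. No probe names ATPD alone, and the genotype labels were therefore not checked against the missing gene.

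Phosphoribulokinase uses ATP to turn ribulose 5-phosphate into ribulose 1,5-bisphosphate, the acceptor of carbon dioxide in the Calvin cycle, and is a large consumer of the ATP that the thylakoid ATP synthase supplies. NADP-malate dehydrogenase reduces oxaloacetate to malate with NADPH, and malate then leaves the chloroplast. This malate valve carries away reducing power when NADPH is made faster than it is used with ATP. XPT sits in the inner envelope and exchanges pentose phosphates for inorganic phosphate or triose phosphates, which joins the pentose phosphate pools of stroma and cytosol. Phosphoribulokinase and NADP-malate dehydrogenase are both switched on in the light by thioredoxins, which receive electrons from ferredoxin.

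All 3 transcripts were lower in atpd than in WT under every scaling tried, and in deposited intensity every atpd array lay below every WT array. Of all probes tested, 9.04% lay apart in this direction in deposited intensity, and 29.7% did so by percentile within the array. After quantile normalisation the log2 change (atpd minus WT) was -1.51 for PRK, -1.57 for AT5G58330 and -4.21 for AT5G17630. On the values as deposited it was -1.24 for PRK, -0.61 for AT5G58330 and -1.97 for AT5G17630. The direction of each change was the same on both scales and its size was not. Fewer cells that express a gene and less of its RNA per cell cannot be told apart in such samples.

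The deposited values are intensities on a linear scale from 0 to a ceiling of 100, in arbitrary units. Their distributions differed between the genotypes. Among values above 0, the WT arrays had medians of 0.279 to 0.303 and the atpd arrays had medians of 0.613 to 0.705, so a typical probe was brighter in atpd. Within a genotype, arrays 1 and 2 resembled each other, as did arrays 3 and 4. Their deviations from the genotype mean correlated across probes at 0.227 and 0.206 within the WT pairs and at 0.613 and 0.777 within the atpd pairs. Between the pairs of a genotype they correlated at -0.857 to -0.592. Subtracting the mean of the same 4 arrays by itself draws such correlations below 0. What the pairs share is not given in the labels. Values within each pair of replicate numbers are given below beside the pooled ones.

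PRK had deposited intensities of 3.41, 3.42, 4.11 and 4.13 on WT arrays 1 to 4. On atpd arrays 1 to 4 it had 1.55, 1.53, 1.64 and 1.63. The genotypes did not overlap, and the dimmest WT array was 2.08 times as bright as the brightest atpd array. The means were 3.77 ± 0.408 in WT and 1.59 ± 0.0534 in atpd (SD, n = 4 in each). In WT the spread lay between the array pairs, with arrays 3 and 4 above arrays 1 and 2, whereas the 4 atpd arrays were close together. The log2 difference as deposited was -1.15 for the first pair of arrays and -1.34 for the second.

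AT5G58330 had deposited intensities of 0.805, 0.755, 0.984 and 0.926 on WT arrays 1 to 4. On the atpd arrays the values were 0.588, 0.603, 0.536 and 0.539. The genotypes again did not overlap, but the gap was narrower, the lowest WT value being 1.25 times the highest atpd value. The means were 0.868 ± 0.106 in WT and 0.567 ± 0.0339 in atpd (SD, n = 4 in each). Arrays 3 and 4 were the brighter pair in WT and the dimmer pair in atpd, so the log2 difference on the deposited scale was -0.39 for the first pair of arrays and -0.83 for the second.

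AT5G17630 had deposited intensities of 0.302, 0.336, 0.248 and 0.334 on WT arrays 1 to 4. On the atpd arrays it had 0.0671, 0.0904, 0.0774 and 0.0757. The lowest WT value, on array 3, was 2.74 times the highest atpd value, on array 2. The means were 0.305 ± 0.0411 in WT and 0.0777 ± 0.00964 in atpd (SD, n = 4 in each), a ratio of 3.92. The log2 difference as deposited was -2.03 for the first pair of arrays and -1.91 for the second.

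**Figure D1:**
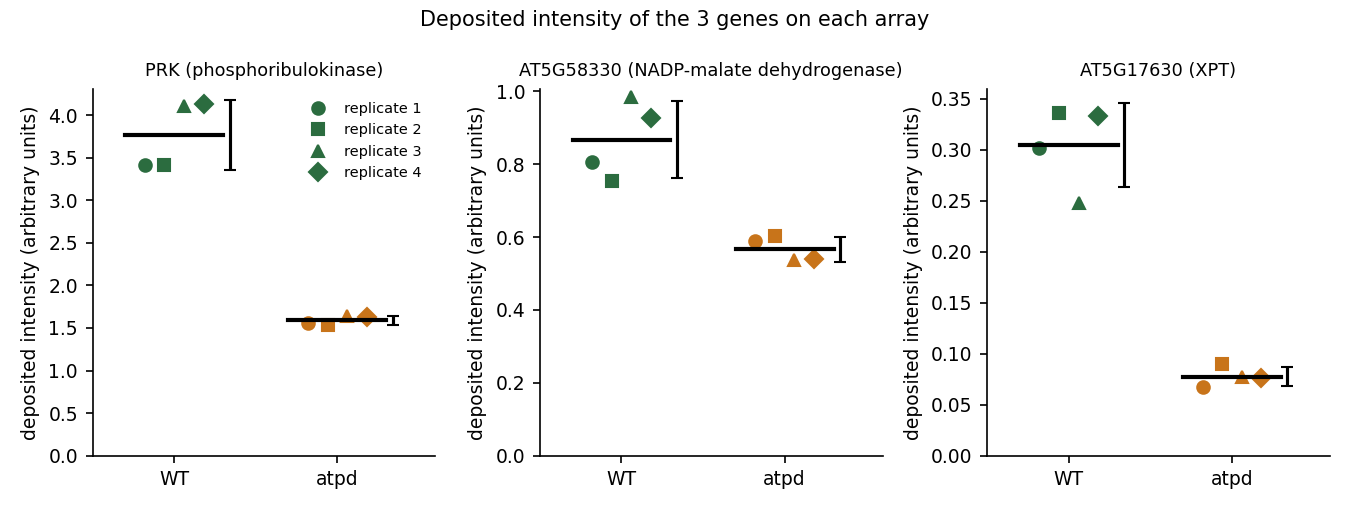
Deposited intensity (arbitrary units, linear axis from 0) of PRK, AT5G58330 and AT5G17630 on the 4 WT arrays (green) and the 4 atpd arrays (orange), with symbols for the replicate number, the mean as a line and the SD as a bar. In each panel all 4 atpd points lie below all 4 WT points, with the narrowest gap for AT5G58330.

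Every atpd array was below every WT array for all 3 genes in deposited intensity. Among the 2921 probes tested this held for 264, or 9.04%, while 59.7% lay wholly above. A fall in deposited intensity was thus the less common pattern on these arrays, against a median log2 change of 0.996 over all tested probes on that scale.

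The place of a probe among all probes of its array does not depend on how the array is scaled. PRK stood at the 97.2nd to 97.5th percentile on the WT arrays and at the 90.5th to 91.9th on the atpd arrays. Between 87 and 95 probes were brighter than PRK on a WT array, and between 280 and 327 on an atpd array. PRK therefore stayed among the brighter probes in both genotypes while it lost rank. AT5G58330 went from the 87.1st to 89.3rd percentile in WT to the 42.7th to 55.4th in atpd, which is from the bright part of the distribution to its middle. In atpd its percentiles were 54.0 and 55.4 on arrays 1 and 2 and 43.3 and 42.7 on arrays 3 and 4.

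AT5G17630 went from the middle of the distribution, at the 48.9th to 63.4th percentile in WT, to the 12.7th to 14.0th in atpd. Between 395 and 430 probes per array were at 0, and in atpd this probe stood just above them. Only 33, 63, 21 and 23 probes with a value above 0 were dimmer than it on atpd arrays 1 to 4, of 3019 to 3026 such probes. On the WT arrays between 1252 and 1785 were dimmer. All 3 genes were without overlap in percentile too, as were 29.7% of the tested probes in the same direction.

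Log2 intensities were quantile-normalised between arrays, which gives each array the same distribution, and each probe was fitted with limma's moderated linear model. PRK fell by 1.51 (SE 0.12, 95% confidence interval -1.78 to -1.24, adjusted p = 2.61e-05), which is 2.85-fold. AT5G58330 fell by 1.57 (SE 0.15, -1.90 to -1.23, adjusted p = 6.10e-05), or 2.96-fold. AT5G17630 fell by 4.21 (SE 0.27, -4.82 to -3.59, adjusted p = 8.95e-06). P-values were adjusted by the Benjamini-Hochberg method over all tested probes, with a threshold of 0.05. By this rule 30.4% of the tested probes were lower in atpd and 51.8% differed in either direction, so a call by itself is common in this comparison and all 3 members being called lower is to be read against that share.

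Ordered from the largest decrease, AT5G17630 was number 5 of 2921 tested probes, AT5G58330 was number 228 and PRK was number 247. Among the 583 tested single-gene probes they were number 2, 47 and 51. The median change of all tested probes was -0.090. The place of AT5G17630 rests on values just above 0 in atpd. With a pseudocount of 0.1 added before log2, its change was -2.02, while PRK was at -1.44 and AT5G58330 at -1.33.

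**Figure D2:**
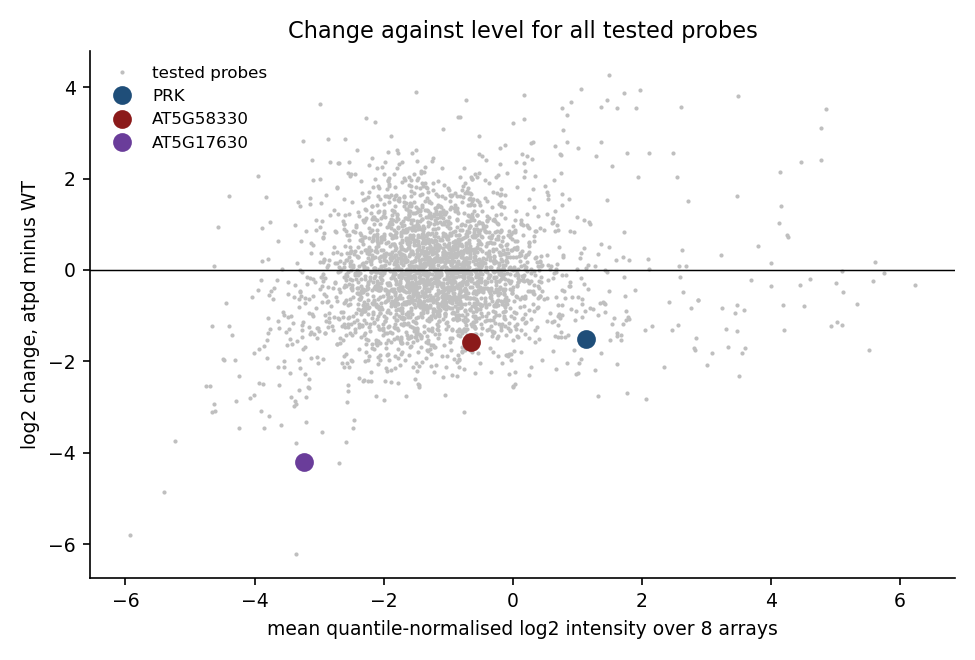
Log2 change (atpd minus WT, quantile-normalised) of each tested probe against its mean normalised log2 intensity over the 8 arrays, with the 3 genes in colour. AT5G17630, at -4.21, lies at the lower edge of the dim probes, AT5G58330, at -1.57, below the middle of the cloud, and PRK, at -1.51, among the brighter probes.

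The 3 genes lie in different classes when the tested probes are split by level into 10 classes of equal size, numbered from the dimmest. Level was the mean normalised log2 intensity over all 8 arrays, so a fall in atpd itself moves a probe toward a dimmer class. The changes in this paragraph are those after quantile normalisation. In class 10, which holds PRK, the median change of the 292 probes was -0.24, 39.7% were called lower and 31 fell by more than PRK. In class 8, which holds AT5G58330, the median change of 293 probes was -0.0043, 29.7% were called lower and 8 fell by more. In class 1, which holds AT5G17630, the median change of 293 probes was -0.64, 41.0% were called lower and 4 fell by more. AT5G17630 is in this class through its atpd values, since it stood at the 48.9th to 63.4th percentile in WT.

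Set against the median of its own level class, each gene's change moved less between scalings than the change itself. For PRK this relative change was -1.27 after quantile normalisation, -1.30 as deposited and -1.06 after cyclic loess, a method that removes trends of change with level. For AT5G58330 it was -1.56, -1.53 and -1.53 in the same order. For AT5G17630 it was -3.56, -3.03 and -3.04. Shifting the arrays to a common median adds the same amount to nearly every probe's change and so left the relative change as it was on the deposited scale. The class medians themselves followed the scaling. For classes 10, 8 and 1 they were 0.061, 0.92 and 1.06 as deposited and -1.11, -0.24 and -0.11 with a common median. After cyclic loess they were 0.19, 0.062 and -0.047. Since the level includes the atpd arrays, the class of a gene depends in part on its own fall. The classes were set after the data had been seen, and these values are a description with no test.

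The sizes without that reference were spread more widely. PRK was at -2.41 with a common median (adjusted p = 4.27e-06) and at -0.87 after cyclic loess (adjusted p = 0.000729). AT5G58330 was at -0.61 as deposited (adjusted p = 0.00352), at -1.78 with a common median and at -1.47 after cyclic loess. AT5G17630 was at -1.97 as deposited (adjusted p = 1.87e-05), at -3.14 with a common median and at -3.09 after cyclic loess. On the deposited scale, where 8.9% of the tested probes were called lower and 62.6% higher, all 3 genes were called lower. With a common median 32.9% of the probes were called lower and after cyclic loess 24.7%, and all 3 genes were among them both times.

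**Figure D3:**
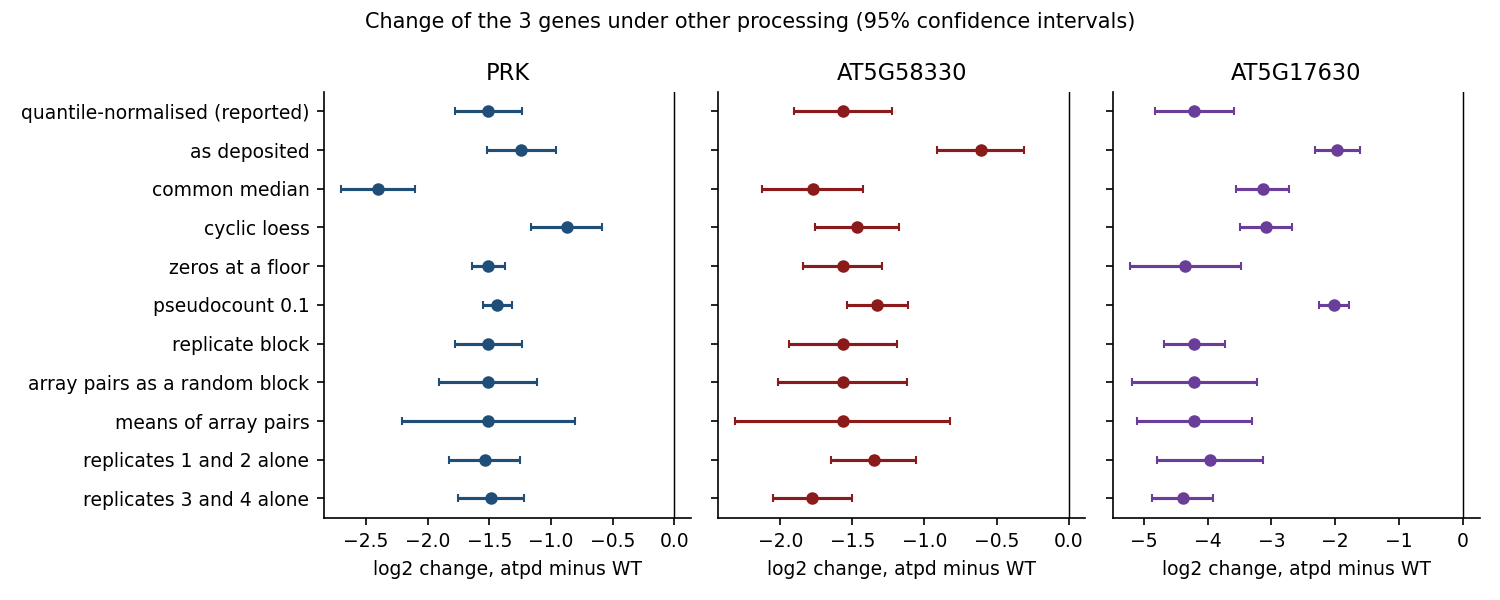
Log2 change (atpd minus WT) of PRK, AT5G58330 and AT5G17630 with 95% confidence intervals under quantile normalisation and 10 other ways of processing. No interval reaches 0, and the values range from -2.41 to -0.87 for PRK, from -1.78 to -0.61 for AT5G58330 and from -4.39 to -1.97 for AT5G17630.

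With the array pairs taken into account in 2 ways, the calls held at wider errors. A random block for the pairs kept every array in the fit and treated the arrays of a pair as correlated. Under it limma gave an adjusted p of 0.000526 for PRK, 0.000705 for AT5G58330 and 0.000311 for AT5G17630, and 20.1% of the tested probes were called lower. With the 2 arrays of a pair averaged, each pair was 1 unit, and limma drew much of its estimate of the spread from the other probes. This fit gave a limma adjusted p of 0.0205 for PRK, 0.0219 for AT5G58330 and 0.00825 for AT5G17630, and 13.2% were called lower. In arrays 1 and 2 alone the changes were -1.54 for PRK, -1.35 for AT5G58330 and -3.96 for AT5G17630. In arrays 3 and 4 alone they were -1.49, -1.78 and -4.39.

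Whether the 3 transcripts fell by the same amount was asked from differences within an array, in which any factor common to the whole array cancels. The level of such a difference has no meaning of its own, since probes differ in how well they bind, and its change between the genotypes shows unequal change only. On the deposited log2 scale PRK minus AT5G17630 was 3.63 ± 0.304 in WT and 4.36 ± 0.194 in atpd (SD, n = 4 in each), a shift of 0.73. AT5G58330 minus AT5G17630 was 1.51 ± 0.345 in WT and 2.87 ± 0.178 in atpd, a shift of 1.36. Both shifts had the genotypes apart on all 8 arrays, the narrower being PRK minus AT5G17630, where WT array 3 at 4.05 came close to atpd array 2 at 4.08. AT5G17630 stood just above 0 in atpd, where small differences in intensity are large on the log2 scale. The shifts were not computed with a pseudocount, so their size near 0 was not tested.

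The exact permutation test (two-sided) gave p = 0.0286 for each of the 3 pairs of genes, the smallest value that 4 against 4 arrays allow, and 0.0286 after adjustment over the 3 pairs. This test treats the 8 arrays as independent. With the arrays matched by replicate number, the exact p was 0.125 for each, the smallest that 4 matched arrays allow, so the shifts did not pass in a paired test. For PRK minus AT5G17630 the shift was 0.89 in the first pair of arrays and 0.57 in the second, for AT5G58330 minus AT5G17630 it was 1.64 and 1.08, and for PRK minus AT5G58330 it was -0.76 and -0.51. The shifts that involve AT5G17630 were in the same direction after quantile normalisation, at 2.70 against PRK and 2.64 against AT5G58330, and after cyclic loess, at 2.22 and 1.62.

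The 2 enzyme genes could not be put in order. As deposited, PRK minus AT5G58330 was 2.12 ± 0.0558 in WT and 1.49 ± 0.135 in atpd (SD, n = 4 in each), so PRK fell by 0.63 more. After quantile normalisation this shift was 0.057 with an exact permutation adjusted p of 0.714, and after cyclic loess it was 0.60 the other way, with AT5G58330 falling by more (exact permutation adjusted p = 0.0286). The order of these falls follows the scaling.

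**Figure D4:**
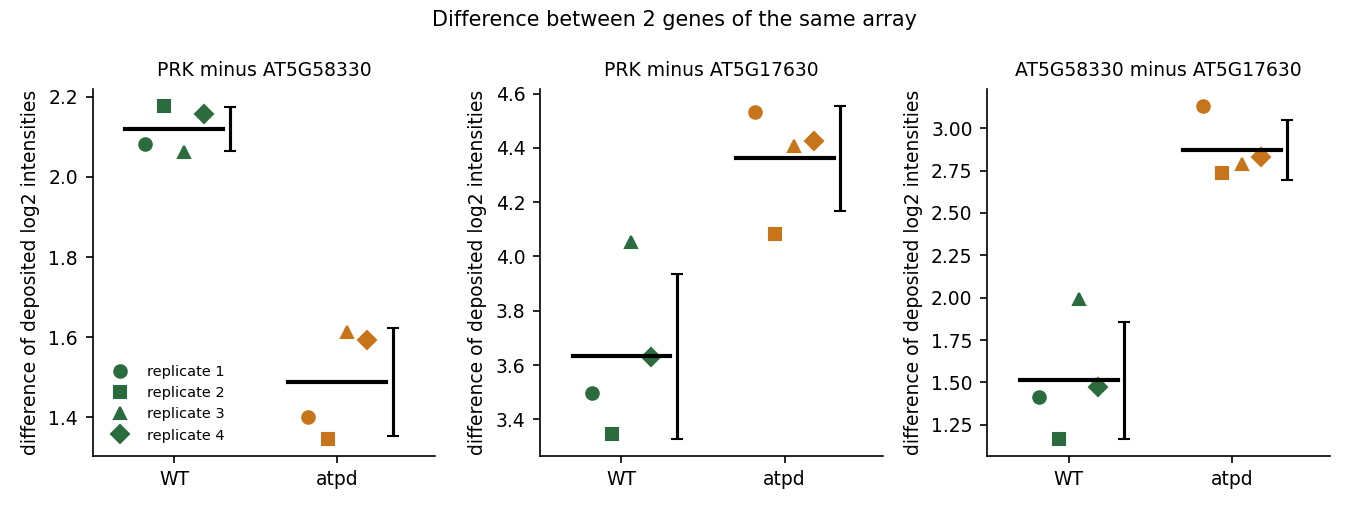
Difference of deposited log2 intensities between 2 genes on the same array, for the 3 pairs of genes, on the 4 WT (green) and 4 atpd (orange) arrays, with the mean as a line and the SD as a bar; the axes do not start at 0. PRK minus AT5G58330 is lower in atpd, and both differences that subtract AT5G17630 are higher in atpd, with no overlap in any panel.

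Other genes of the same pathways were looked up in 8 lists of Arabidopsis loci (the Calvin cycle, plastid envelope transporters, malate dehydrogenases and malic enzymes, the stromal thioredoxin system, the pentose phosphate pathway, starch, sucrose synthesis and photorespiration). Of the 122 loci besides the 3 members, 6 had a probe that names a single gene, and 3 of these could be tested. By the same rule 1 was lower, 1 was higher and 1 did not pass, with a median change of -0.040. Few of the pathway genes can thus be read from this array, and the 3 members cannot be taken to stand for their pathways. None of the other 12 listed envelope transporters and none of the other 12 listed malate dehydrogenases and malic enzymes had a single-gene probe.

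The lower one was AT2G04700, a locus of the thioredoxin list for which the reference gives no name. Its deposited intensities were 0.626, 0.499, 0.606 and 0.663 on WT arrays 1 to 4 and 0.276, 0.218, 0.265 and 0.253 on the atpd arrays, without overlap. It fell by 2.39 on the log2 scale after quantile normalisation (SE 0.15, limma adjusted p = 8.95e-06), and its change was -1.24 as deposited (adjusted p = 0.000122). Its percentile went from between 77.0 and 83.1 in WT to between 20.4 and 26.8 in atpd.

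The higher one was NTRC, a plastid thioredoxin reductase that uses NADPH, at 0.215 ± 0.0334 in WT and 0.732 ± 0.144 in atpd in deposited intensity (SD, n = 4 in each). Its log2 change after quantile normalisation was 0.58 (SE 0.18, limma adjusted p = 0.0245), where 21.4% of the tested probes were called higher. As deposited the change was 1.76 (adjusted p = 8.33e-05), where 62.6% were called higher. NTRC was also called with a common median (0.59, adjusted p = 0.0250) and after cyclic loess (0.58, adjusted p = 0.0200). Of the other ways of processing, 12 kept the call and 9 lost it. It did not pass under the random block for array pairs (adjusted p = 0.156) or with the replicate number blocked (adjusted p = 0.0591). It also missed the threshold in arrays 1 and 2 alone (0.25, adjusted p = 0.323). Leaving out WT array 3 (adjusted p = 0.0544), WT array 4 (0.0565) or atpd array 1 (0.0555), 3 (0.0608) or 4 (0.0716) ended the call as well.

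ATSPS4F, a sucrose phosphate synthase of the cytosol, had deposited intensities of 0.475, 0.479, 0.583 and 0.756 on the WT arrays and 1.04, 1.05, 0.959 and 1.06 on the atpd arrays. After quantile normalisation the difference was -0.040 (SE 0.14, limma adjusted p = 0.835), while as deposited it was 0.87 (adjusted p = 0.00223), near the median of all probes on that scale. The probe of SBPASE, the sedoheptulose bisphosphatase of the Calvin cycle, was listed at 0 on 7 arrays and at 0.0354 on WT array 2. Loci AT5G44520 and AT1G12230 of the pentose phosphate list had a value above 0 on 1 array and on 0 arrays, and none of these 3 was tested.

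**Figure D5:**
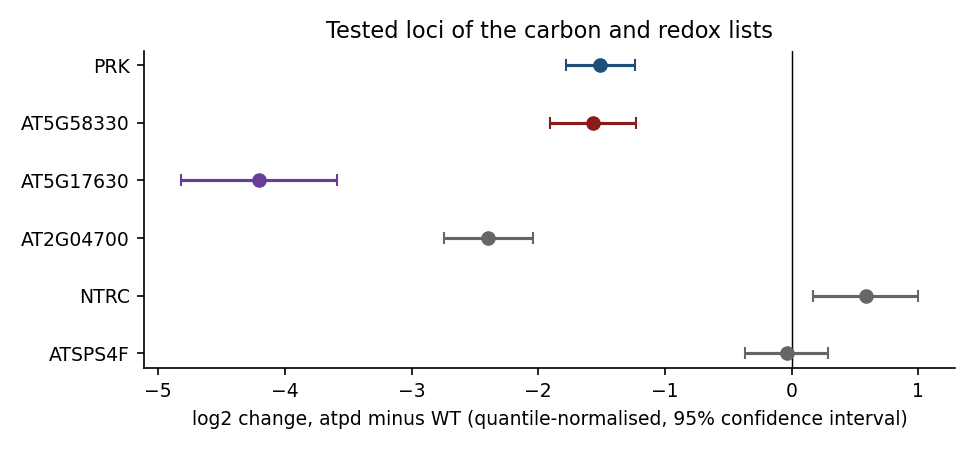
Log2 change (atpd minus WT, quantile-normalised) with its 95% confidence interval for the 3 genes (colour) and the other 3 tested loci of the 8 lists (grey). PRK, AT5G58330, AT5G17630 and AT2G04700 lie below 0, NTRC lies above 0, and the interval of ATSPS4F includes 0.

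A single antenna gene stood for green tissue. LHB1B2, which encodes a chlorophyll-binding antenna protein and belongs to a family of nearly identical genes, had deposited intensities of 58.3 to 66.4 in WT and 16.6 to 23.2 in atpd, between the 99.3rd and the 99.9th percentile on all 8 arrays. This marker fell together with the 3 genes, with a limma log2 change of -1.14 after quantile normalisation (adjusted p = 0.000717) and of -1.63 as deposited. After cyclic loess it was at -0.37 and did not pass (adjusted p = 0.0562). Markers of other cell types were not examined, and the part of tissue makeup in the falls was not tested.

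The genes whose pattern was most like that of each member were found among the single-gene probes tested and above 0 on all arrays, by the root mean square difference of centred normalised log2 values over the 8 arrays. For AT5G58330 they were AT1G07850 (0.0766), AT1G34270 (0.0921) and AT4G22490 (0.0964), with changes of -1.50, -1.47 and -1.49. Their likeness was measured on normalised values. As deposited, AT1G07850 was at -0.21 (limma adjusted p = 0.132) and AT1G34270 at -0.23 (adjusted p = 0.116), neither past the threshold. On that scale AT4G22490 was at -0.67 (adjusted p = 0.00113), and AT5G58330 was at -0.61.

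For PRK the nearest were AT3G06570 (0.133), AT5G19210 (0.147) and AT4G05070 (0.162), with changes of -1.32, -1.44 and -1.36. For AT5G17630 the nearest were AT4G02580 (0.731), AT3G56250 (0.740) and AT1G29700 (0.798), with changes of -3.55, -2.84 and -2.97. This difference grows with the size of the change, and by Pearson's r over the 8 arrays these 3 were at 0.942, 0.979 and 0.955, while the 3 nearest to PRK were at 0.991, 0.981 and 0.978. These 9 were picked among 570 genes on the same values from which r was computed, so a high r follows from the choice. The reference gives none of them a name beyond the locus.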

How the data were processed

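The deposited table holds a linear intensity per probe and array. How the authors corrected background, scaled the arrays or set values at 0 and 100 is not given in the sources used here. Probes were named through the platform annotation, and symbols were read from the reference table of assembly TAIR10.1. The 3 genes and the lists were chosen with earlier results of these data known.

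Values at 0 were treated as missing, and a probe needed at least 3 values per genotype, which left 2921 probes. Log2 values were quantile-normalised and fitted with limma 3.58.1 (R 4.3.3), two-sided, threshold 0.05 after Benjamini-Hochberg adjustment. The random block used duplicateCorrelation (consensus correlation 0.688). Exact permutation tests used scipy 1.17.1. The fit was tested on simulated data.

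Replicate numbers are shared by the genotypes in the titles. Deviations from the genotype means correlated at 0.283 to 0.374 between the WT and the atpd array that share a number, always over 0.1, so the number was taken as a pairing and tried as a block. Arrays of different numbers of the same set correlated at 0.184 to 0.289.

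Named genes were the 3 members, all tested single-gene loci of the lists, and for each member the 3 single-gene probes with the most similar pattern. The other alternatives were other scalings, filters, a pseudocount of 0.1, zeros at a floor, an intensity trend with a robust prior, and each array left out. The tables hold no counts or depth, and the number of arrays limits the precision.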

Additional observations from a re-analysis of the deposited data

How the results depend on the processing

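The changes of PRK and AT5G58330 kept their direction and call in all 21 alternatives, and that of AT5G17630 in all 20 that gave it a value. Its level lies under the 25th percentile, so that filter left it untested. Of all tested probes, between 260 (as deposited) and 1016 (arrays 3 and 4 alone) were called lower in an alternative. With each array left out, the change ranged from -1.58 to -1.45 for PRK, from -1.66 to -1.49 for AT5G58330 and from -4.59 to -4.00 for AT5G17630. With the replicate block, the paired limma fit gave adjusted p of 0.000423, 0.000827 and 0.000228, and 976 of 2921 tested probes were called lower. The block ended the call of NTRC alone among the 6 tested list loci. The size of AT5G17630 was -2.02 with a pseudocount of 0.1.

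PRK minus AT5G58330 reversed after quantile normalisation (0.057) and cyclic loess (0.60), and no other gene pair did under these scalings. A pseudocount was not tried for the gene pairs, although AT5G17630 stood just above 0 in atpd. With the replicate block the 3 shifts kept their size, but 4 pairs allow no exact p below 0.125. Leaving out arrays gave -0.67 to -0.58, 0.63 to 0.87 and 1.25 to 1.52 for PRK minus AT5G58330, PRK minus AT5G17630 and AT5G58330 minus AT5G17630. ATSPS4F changed sign as deposited (0.87), after cyclic loess (0.063), in arrays 1 and 2 alone (0.16) and without WT replicate 4 (0.044) or atpd replicate 3 (0.014), ranging from -0.078 to 0.044 with an array left out. The number of called probes moved from 1513 to 924 with array pairs as a random block, which treats the arrays of a pair as correlated. With pair means, where fewer units enter, the number was 671. It was 1656 with the replicate block and 1301 to 1478 with an array left out. Of the listed loci, between 4 and 6 were called in each alternative. As deposited the split of calls was 1829 higher and 260 lower, against 625 and 888 after quantile normalisation. The settings with array pairs were chosen with the pair structure known.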
